A study of Mus musculus with 3 samples.

Results

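The genes described here encode the protein subunits of the mitochondrial ribosome. They were chosen by name, as the protein-coding genes of the mouse GENCODE annotation (release 21, genome build GRCm38/mm10) whose symbol begins with Mrpl or Mrps and a number. The rule found 78 genes among 21938 protein-coding genes, of which 51 encode large subunit proteins and 26 small subunit proteins. Mrps36 matches by its symbol but is known as a component of the 2-oxoglutarate dehydrogenase complex, so it is counted in neither subunit. The chromatin of their promoters was measured by ATAC-seq, in which a transposase cuts accessible DNA, in mouse pre/pro-B cell lines made from bone marrow by retroviral transduction of BCR-ABL(p185), the fusion kinase of acute lymphoblastic leukemia. The mice carried on both alleles either wildtype Cdk6 (WT) or Cdk6 K43M, a mutation that leaves the cell cycle kinase CDK6 without kinase activity. There were 2 lines per genotype and 1 list of open regions (peaks) per line, 4 lists in all. All 4 lines carry the oncogene and were kept in culture as stable lines, so they model established leukemic cells and not normal B cell precursors. The lists are named WT unnumbered, WT replicate 2, K43M replicate 1 and K43M replicate 2, and the unnumbered WT list comes from a line that the submitters had deposited before.

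The mitochondrial ribosome translates the few messages encoded by mitochondrial DNA, nearly all of them core subunits of the respiratory chain. Its RNAs come from the mitochondrial genome, whereas all its proteins come from nuclear genes, are made in the cytosol and are imported. Many subunits descend from bacterial ribosomal proteins, and others are found only in mitochondria. Promoters of nuclear genes for mitochondrial proteins are known for binding sites of NRF-1, of ETS factors such as GABP, of SP1 and of YY1. The comparison of the genotypes asks whether the loss of CDK6 kinase activity is accompanied by a change in the accessibility of these promoters.

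The following promoter sequences show the letters that were searched around the starts of these genes and are referred to again below. All were read from the NCBI RefSeq copy of GRCm38 on the strand of the named gene, 5′ to 3′, with the matching letters in capitals. The first 3 are the 150 bases directly before the main start of Mrpl44, Mrpl17 and Mrpl45, large subunit genes with highly ranked peaks and a match to the NRF-1 letters GCGCANGCG (either strand) before the start. Mrpl44 is at chr1:79775868-79776017 (plus strand), Mrpl17 at chr7:105811100-105811249 (minus strand, with 1 SP1 match, GGGCGGG or its complement) and Mrpl45 at chr11:97315566-97315715 (plus strand).
Mrpl44: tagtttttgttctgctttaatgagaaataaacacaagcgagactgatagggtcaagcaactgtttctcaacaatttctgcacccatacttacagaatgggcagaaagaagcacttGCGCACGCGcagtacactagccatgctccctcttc
Mrpl17: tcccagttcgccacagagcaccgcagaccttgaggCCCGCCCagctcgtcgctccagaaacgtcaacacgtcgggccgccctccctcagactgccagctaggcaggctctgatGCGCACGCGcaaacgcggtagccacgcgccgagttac
Mrpl45: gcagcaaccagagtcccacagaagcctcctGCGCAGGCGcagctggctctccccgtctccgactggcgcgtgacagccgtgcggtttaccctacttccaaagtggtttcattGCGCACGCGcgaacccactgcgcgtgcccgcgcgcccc

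Many of these genes start back to back with another gene. The pair below shows the whole stretch between the starts of 2 such pairs. Mrps12 and Sars2, the gene of the mitochondrial seryl-tRNA synthetase, are separated by the 171 bases at chr7:28741821-28741991, given on the minus strand, which is that of Mrps12, with 3 NFY matches (CCAATCA or CCAATGA) and 1 SP1 match in capitals. Mrps11 and Mrpl46, a small and a large subunit gene, are separated by the 29 bases at chr7:78783090-78783118. This stretch is given on the plus strand, which is that of Mrps11, and holds no whole match. An SP1 match begins 4 bases before the Mrps11 start and runs past the end of the stretch.
Mrps12: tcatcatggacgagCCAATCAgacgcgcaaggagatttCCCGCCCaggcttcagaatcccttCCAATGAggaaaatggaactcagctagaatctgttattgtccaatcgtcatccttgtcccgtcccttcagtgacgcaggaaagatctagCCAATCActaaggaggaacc
Mrps11: ccatgaggcaacgcgggccggcgaggggc

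The remaining sequences are 30-base stretches around ETS matches (CCGGAAG or its complement) and YY1 matches (AANATGGCG), for the 5 genes with the highest mean peak rank among those with such a match. The ETS examples are Mrps12 (chr7:28741803-28741832, minus), Mrps27 (chr13:99344726-99344755, plus), Mrpl17 (chr7:105811307-105811336, minus), Mrps18b (chr17:35916380-35916409, minus) and Mrpl18 (chr17:12916314-12916343, minus).
Mrps12: taaggaggaaccCCGGAAGgggctggaggt
Mrps27: gtggtaggaccaCTTCCGGcggaggcgggc
Mrpl17: ggcatgctccgcCCGGAAGgcgcctcctcc
Mrps18b: tgcgcagtcgctCTTCCGGcaggccgtacg
Mrpl18: aaactgaaaacgCCGGAAGtagggggctgc

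The YY1 examples are Mrps27 (chr13:99344789-99344818, plus), Mrpl37 (chr4:107066822-107066851, minus), Mrps24 (chr11:5707647-5707676, minus), Mrpl42 (chr10:95501904-95501933, minus) and Mrps18a (chr17:46111004-46111033, plus). Their letters hold an ATG, and in Mrps27, Mrps24 and Mrps18a that ATG is an annotated start codon.
Mrps27: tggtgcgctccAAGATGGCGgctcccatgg
Mrpl37: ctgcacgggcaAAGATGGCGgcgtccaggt
Mrps24: cgcgccggcccAAGATGGCGtggtccgcgt
Mrpl42: cagattgaagcAAGATGGCGagcgcgcggt
Mrps18a: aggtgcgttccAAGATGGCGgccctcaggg

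The 4 lists held between 33038 and 39038 peaks and covered 17.2 to 19.8 Mb. Read totals are not part of a peak list, but the number of read ends stacked at each peak's highest point (the summit pileup) could be recovered from its fold enrichment and p-value for 100% of peaks. At the genes described here the median pileup was 50.5, 47, 48.5 and 39 read ends in the lists in the order above, a relative counting SD of 14.1% to 16.01% that covers counting error only. As a check of the cell type, the promoters of 6 B-lineage genes (Cd79a, Cd79b, Pax5, Ebf1, Vpreb1 and Igll1) had a peak in every list except that of Cd79b, which had none in K43M replicate 2. Of 6 genes that such cells should not use (Alb, Myh6, Ins2, Gfap, Cd3e and Mpo), 1 had a peak, Gfap in WT replicate 2. Peaks of Cdk6 itself say nothing of the K43M allele, which changes the protein and not its promoter, so the genotype labels could not be checked from these files.

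Counted by any overlap of a peak with the promoter window, each of the 78 genes was open in every line. A peak overlapped the promoter window, which ran from 2000 bp before to 200 bp after any annotated start, for 78 of 78 genes in each of the 4 lists, against 47.6% of all protein-coding genes with a peak in all 4. It follows that not 1 of the 78 had a peak in both WT lists and neither K43M list, or the opposite pattern. Over all genes 0.515% showed the former and 2.0% the latter. The genes lie on 17 chromosomes and used 77 distinct peaks in each list, since Mrps11 and Mrpl46 share one. A count of 62 genes had exactly 1 promoter peak in every list, 79.5% of the 78 against 67.9% of all genes open in all lists.

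Related gene groups gave values near these. All 76 genes of the cytosolic ribosome had a promoter peak in every list, and so did 79 of 87 genes of the respiratory chain and ATP synthase. Among lists of other genes of mitochondrial translation, a peak in all 4 lists was found for 20 of 20 tRNA synthetases and amidotransferase subunits, for 24 of 25 mitoribosome assembly genes and for 10 of 11 translation factors. The exceptions lacked a peak in 1 list each, namely Gtpbp10, a GTPase of large subunit assembly, in WT replicate 2 and Mtrf1, a release factor, in K43M replicate 2. Of 5 mitoribosomal proteins that carry other symbols, Dap3, Ptcd3, Aurkaip1 and Chchd1 had a peak in all 4 lists, whereas Gadd45gip1, a large subunit protein, had none in any list.

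The peaks lay at the starts. The median over genes of the summit position was 28.5 bp upstream of the nearest annotated start, and 75 of 78 genes had the summit within 500 bp of a start in every list, compared with 90.1% of all genes open in all lists. The 3 exceptions were each displaced in 1 list. The summit of Mrps2, a small subunit protein of bacterial descent, was 55, 70 and 60 bp upstream in WT unnumbered, K43M replicate 1 and K43M replicate 2, but WT replicate 2 listed only a peak 1869 bp upstream. For Mrpl34 the highest peak in K43M replicate 1 was 1267 bp upstream, and for Mrpl53 that in K43M replicate 2 was 1249 bp upstream, while in the other lists these summits were within 237 bp and 74 bp. Between lists the summit of a gene moved little, by a median of 52.5 bp against 55 bp over all genes open in all lists.

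**Figure D1:**
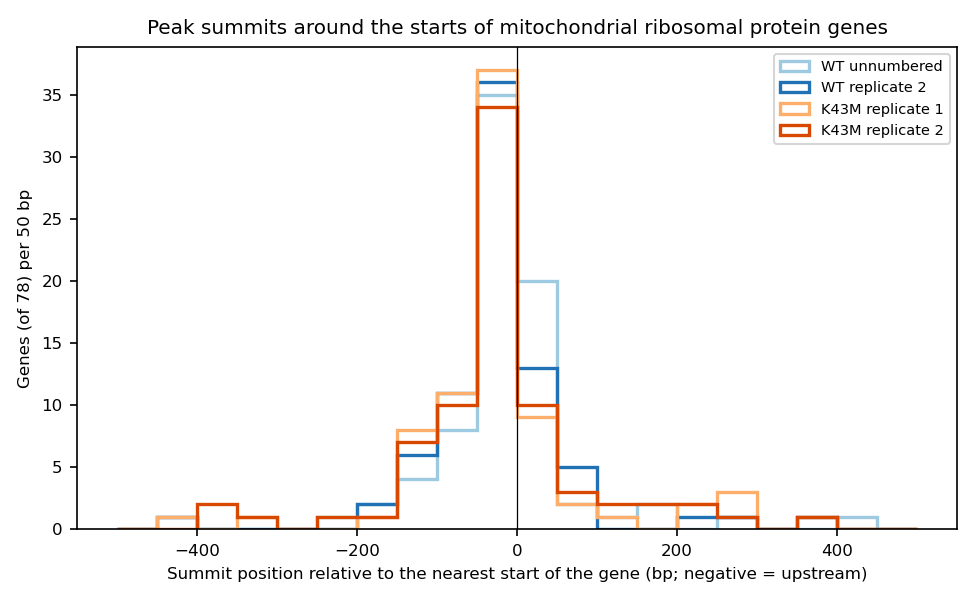
Number of the 78 genes per 50 bp of distance from the peak summit to the nearest annotated start, 1 line per list, with negative distances upstream. In all 4 lists the highest bin is the 50 bp directly upstream of the start; 3 summits, 1869, 1267 and 1249 bp upstream, lie outside the axis.

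Mrpl48 stood apart in using different starts. It had 3 promoter peaks in each list, and the highest was at one start in WT unnumbered and K43M replicate 2 and at another in WT replicate 2 and K43M replicate 1, the 2 positions being 16348 bp apart. Each genotype thus contributed 1 list to each position. At Mrps28, a small subunit protein of bacterial descent, the summit lay inside the gene in all lists, 426, 396, 383 and 383 bp downstream of its start, so its peak overlapped the window while its summit did not.

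Within each list the peaks were ranked by the fold enrichment of the summit over the local background, as a percentile of all peaks of that list, with 100 the highest. The median percentile of the 78 genes was 81.8 and 83.3 in the WT lists (unnumbered, then replicate 2) and 85.7 and 80.1 in the K43M lists (replicate 1, then replicate 2). Over all genes open in all lists it was 78.6, 80.1, 81.2 and 80.4, so the genes were above that median in 3 lists and level with it in K43M replicate 2. Averaged over the lists the median was 82.7, with the middle 50% of genes between 68.7 and 91.4. Respiratory chain genes gave 86.3, cytosolic ribosomal protein genes 79.8 and all genes open in all lists 79.6. Above percentile 75 in every list were 36 of the 78 genes, 46.2%, against 44.6% of all genes open in all lists. The genotype means of the medians differed by 0.37 percentile points (K43M minus WT), less than the SD of 2.88 between lists of a genotype.

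**Figure D2:**
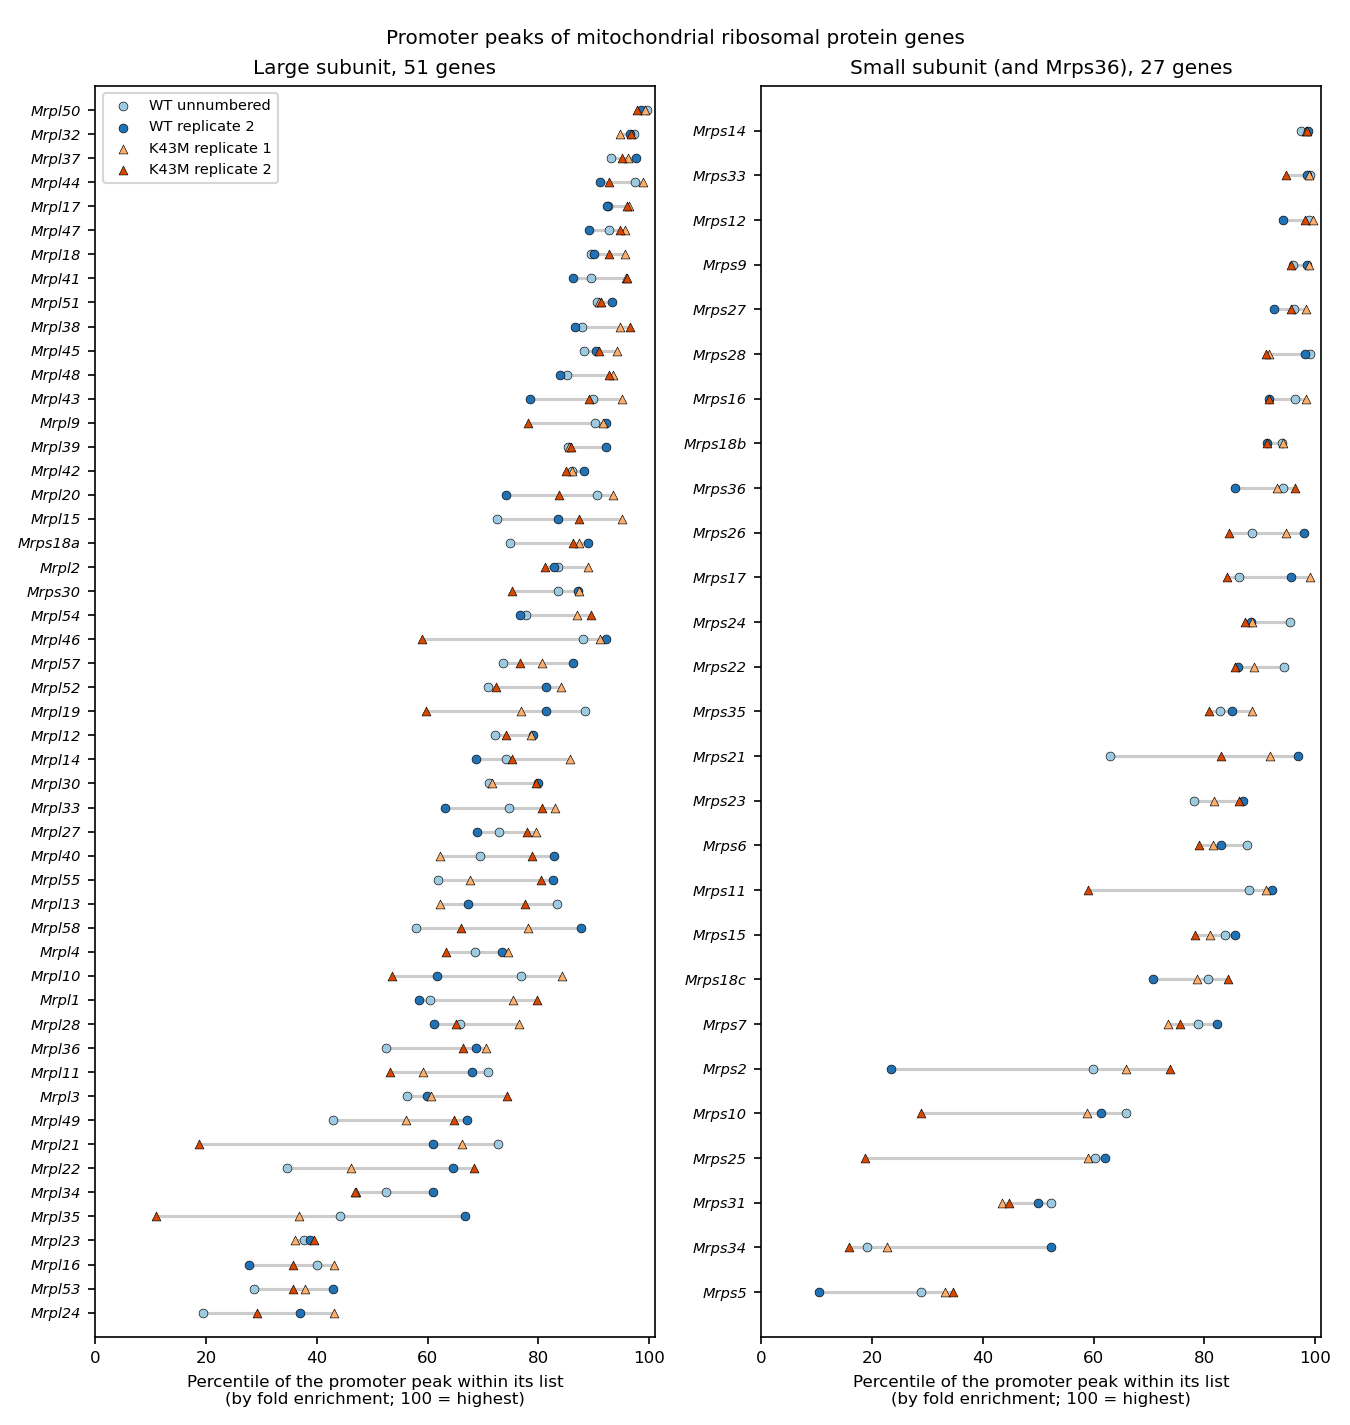
Percentile of the promoter peak within its list, by fold enrichment, for 51 large subunit genes (left) and 26 small subunit genes with Mrps36 (right), 1 row per gene, with circles for the WT lists, triangles for the K43M lists and a grey line from the lowest to the highest. Mrpl50 and Mrps14 lie at the top with all 4 points at 97.4 or higher, and Mrpl24 and Mrps5 at the bottom of their panels with all 4 points at 43.1 or lower.

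The highest ranks belonged to Mrpl50, a large subunit protein found only in mitochondria, and to the small subunit genes Mrps14, Mrps33, Mrps12 and Mrps9. The peak of Mrpl50 on chromosome 4 had fold enrichments of 16.2 and 14.6 in the WT lists and 15.6 and 13.9 in the K43M lists, from summit pileups of 104, 93, 88 and 64 read ends. Its mean percentile was 98.8 and its percentiles differed by 1.76 between the highest and the lowest list. Mrps14 on chromosome 1 had fold enrichments of 13.96, 14.7, 14.8 and 14.3 in the same order. Mrps33 gave 15.3, 14.5, 15.2 and 12.6. Both genes were near the top of every list, the lowest percentile being 94.7 for Mrps33 in K43M replicate 2. Mrps12, the counterpart of the bacterial protein at the decoding center, had fold enrichments of 14.9, 12.7, 16.3 and 14.05 at the promoter that it shares with Sars2. Mrps9 gave 13.4, 14.6, 15.1 and 12.9, and its peak summit stayed within 12 bp over the 4 lists.

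The lowest ranks belonged to Mrps5, Mrps34, Mrpl24, Mrpl53 and Mrpl16. Mrps5, of bacterial descent, had fold enrichments of 5.48, 4.23, 5.70 and 5.64, with summit pileups of 17 to 26 read ends and a mean percentile of 26.7. Mrps34, a small subunit protein found only in mitochondria, gave 4.86, 6.92, 5.08 and 4.62, and its percentile of 52.3 in WT replicate 2 stood above the 15.9 to 22.7 of the other lists. Mrpl24 gave 4.89, 5.82, 6.21 and 5.41, Mrpl53 gave 5.47, 6.17, 5.92 and 5.71, and Mrpl16 gave 6.12, 5.26, 6.21 and 5.71. In these 5 genes the peaks rested on 12 to 29 read ends, so that their order among themselves does not hold beyond the spread between lists.

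Small subunit genes had a higher median rank than large subunit genes in each list. The median percentiles were 87.0 against 74.7 and 87.7 against 81.3 in the WT lists, and 88.7 against 84.1 and 84.1 against 78.1 in the K43M lists. The order was likewise the same in all 4 lists when the genes were divided by descent. The 31 mitochondrion-specific proteins had medians of 85.4, 87.0, 88.6 and 86.0, and the 46 with a bacterial homolog 74.5, 76.6, 79.2 and 78.01. No test was run on these rankings, which describe the lists.

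The median peak of these genes was narrower than that of open promoters in general in every list. Their median width was 796.5 and 749.5 bp in the WT lists and 742 and 733 bp in the K43M lists, against 866, 824, 866 and 775 bp over all genes open in all lists. The related groups were narrower than all open genes too. Cytosolic ribosomal protein genes had 776, 765.5, 830 and 698.5 bp, and respiratory chain genes 813, 769, 830 and 765 bp, in the same order. The genotype means differed by -35.5 bp (K43M minus WT), with an SD between lists of 23.9 bp. Without the unnumbered WT list the difference was -12.0 bp, and without WT replicate 2 it was -59.0 bp. Both K43M medians were below both WT medians. No test was run on the widths, since the smallest two-sided p that an exact permutation test of 2 lists against 2 allows is 0.333. In the lists as a whole the median peak width was 419 bp in WT unnumbered and between 389 and 397 bp in the other 3.

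The genotypes were compared gene by gene with limma on the log2 fold enrichment, centred within each list, over the 10446 protein-coding genes with a promoter peak in all 4 lists. No mitochondrial ribosomal protein gene passed an adjusted p of 0.05 in this fit, and the smallest adjusted p was 0.33. Over all genes 13 were higher in K43M, 0.124% of those tested, and 4 lower, 0.0383%. At an unadjusted p under 0.05, 3 of the 78 genes were higher in K43M, 3.85% against 4.95% of all genes, and 3 were lower, against 4.57%. Both K43M lists lay above both WT lists in 14 genes, 17.9% against 20.2% of all genes, and below them in 15 genes, 19.2% against 19.9%. The fit takes the highest promoter peak of each list, which was not always the same open region. In Mrpl48 and Mrps2, counted above, and Mrpl34, counted below, the position of that peak differed between lists. The median difference was -0.0056 on the log2 scale over the 78 genes and 0.0009 over all genes tested, with 36 of the 78 differences above 0, 46.2% against 50.3% of all genes tested.

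The absence of a call has to be read with its precision. The 95% interval of the difference had a median half-width of 0.28 on the log2 scale. For 59 of the 78 genes it lay entirely between -0.5 and 0.5, that is, within a 1.41-fold change in either direction. The widest reach was from -0.98 for Mrpl35 to 0.87 for Mrps2.

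**Figure D3:**
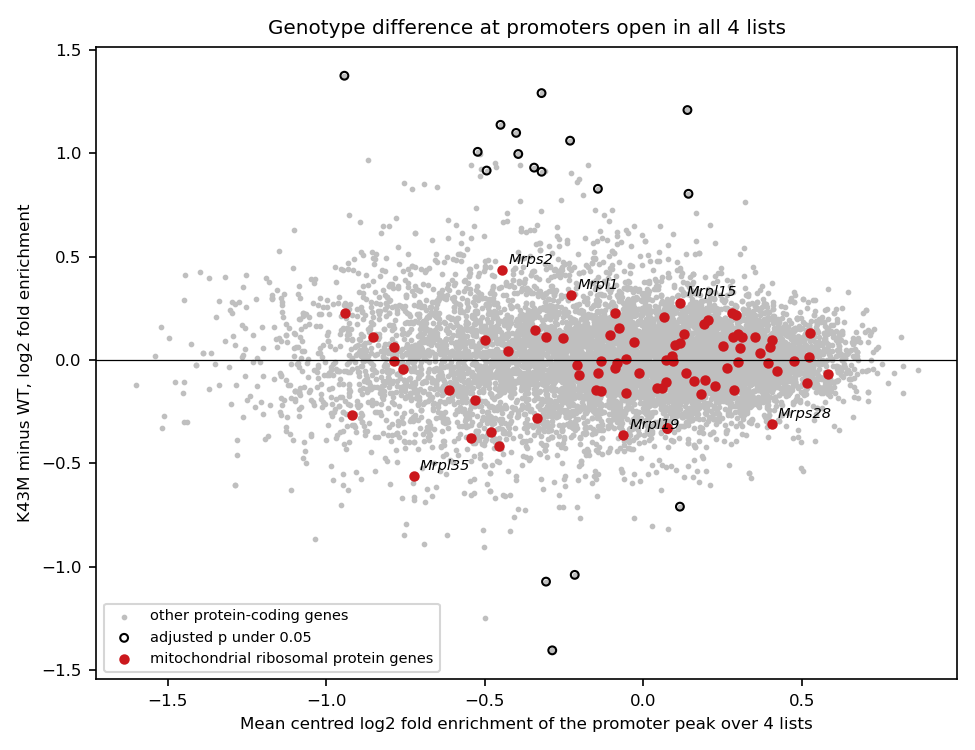
Difference in log2 fold enrichment, K43M minus WT, against the mean centred log2 fold enrichment over 4 lists, 1 point per gene, with the 78 genes in red and the 17 genes past an adjusted p of 0.05 ringed. The red points lie between -0.56 and 0.44, none is ringed, and the 6 with an unadjusted p under 0.05 are named.

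The genes with the largest positive differences (K43M minus WT) among those whose lists did not overlap were Mrps2, Mrpl1, Mrpl15, Mrps5 and Mrpl38. Mrps2 had fold enrichments of 7.80 and 5.12 in the WT lists and 8.27 and 8.93 in the K43M lists, a difference of 0.44 ± 0.20 (SE, log2 scale, n = 2 lists per genotype, limma adjusted p = 0.52). The WT replicate 2 value is that of the peak 1869 bp upstream, and without this list the difference was 0.13. Mrpl1, which forms a mobile stalk of the large subunit, had fold enrichments of 7.85 and 7.49 in WT and 9.45 and 9.71 in K43M. Its difference was 0.31 ± 0.14 (limma adjusted p = 0.50). Summit pileups at Mrpl1 were 59 and 48 in WT and 61 and 39 in K43M, while the background per 200 bp was 6.64 and 5.54 against 5.56 and 3.12, so the pileups overlapped between genotypes and the background was lowest in K43M replicate 2. Mrpl15 gave 9.22 and 10.5 in WT and 13.2 and 10.9 in K43M, a difference of 0.28 ± 0.13 (limma adjusted p = 0.52). It was 0.17 without K43M replicate 1 and 0.18 without the unnumbered WT list. Mrpl38, a mitochondrion-specific protein, gave 11.4 and 11.04 in WT and 13.1 and 13.3 in K43M, a difference of 0.23 ± 0.10. Mrps5, among the lowest peaks of the group, also differed by 0.23, with an SE of 0.19, and by 0.04 without WT replicate 2.

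The genes with the most negative differences among those whose lists did not overlap were Mrpl35, Mrps25, Mrpl19, Mrps10 and Mrps28. Mrpl35 had fold enrichments of 6.49 and 8.33 in WT and 5.82 and 4.32 in K43M, from 19, 29, 16 and 11 read ends, a difference of -0.56 ± 0.19 (limma adjusted p = 0.39). The difference was -0.38 without WT replicate 2 or without K43M replicate 2. It was -0.74 without the unnumbered WT list or without K43M replicate 1. Mrps28 had 15.2 and 14.3 in WT and 12.3 and 11.7 in K43M, from 91, 83, 76 and 62 read ends, and its difference of -0.31 ± 0.10 carried the smallest adjusted p of the 78 genes, 0.33. It was the steadiest of these genes, with a difference between -0.35 and -0.27 when each list was left out in turn. Mrpl19 gave 11.6 and 10.2 in WT and 9.67 and 7.43 in K43M, a difference of -0.37 ± 0.14 (limma adjusted p = 0.44) that became -0.21 without K43M replicate 2. In Mrps25 and Mrps10 the low value was that of 1 list. The fold enrichments of Mrps25 were 7.84 and 7.81 in WT, 7.60 in K43M replicate 1 and 4.83 in K43M replicate 2, and the difference of -0.38 became -0.08 without the last list. Those of Mrps10 were 8.43 and 7.74 in WT, 7.58 in K43M replicate 1 and 5.38 in K43M replicate 2, and its difference of -0.35 became -0.13.

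Of the 78 genes 5 lie on chromosome 13 and none on chromosomes 12 or 18, the chromosomes picked with earlier results of these lists known. Mrpl32, whose maturation by a mitochondrial protease precedes its assembly into the large subunit, had fold enrichments of 13.9 and 13.4 in WT and 13.1 and 13.4 in K43M. Mrps27, an RNA-binding protein of the small subunit, gave 13.4 and 12.2 in WT and 14.7 and 12.9 in K43M. Mrps36 gave 12.8 and 10.8 in WT and 12.6 and 13.2 in K43M. Mrps30, a large subunit protein in spite of its symbol, gave 10.7 and 11.1 in WT and 11.4 and 9.13 in K43M. Mrpl36 gave 7.09 and 8.54 in WT and 8.81 and 8.10 in K43M. On the centred log2 scale of the fit the genotypes overlapped in all 5, whereas the uncentred fold enrichments of Mrpl32 were lower in both K43M lists than in both WT lists. The background beneath the summits was lower in K43M by a median of -0.44 on the log2 scale for these 5 genes and by -0.12 for the other 73, and its part in the fold enrichments was not tested.

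A divergent arrangement was common. A start of another protein-coding gene on the opposite strand lay within 1000 bp upstream for 26 of the 78 genes, 33.3%, compared with 28.7% of respiratory chain genes, 14.5% of cytosolic ribosomal protein genes, 17.5% of all genes open in all lists and 9.17% of all protein-coding genes. The median distance between the 2 starts was 70.5 bp over the 26 genes, and for 23 of them, with Mrps11 and Mrpl46 counted once each, it was at most 200 bp. In 25 of the 26 the same peak stood for both genes in all 4 lists, so its signal cannot be assigned to one of them. The exception was Mrps5 with Zfp661, where the peak was shared in 1 list. The share of such common peaks over all genes with a divergent neighbour was not counted. Peaks shared with genes in other arrangements were not counted either. Mrpl44, which has no divergent neighbour by this rule, had the same percentiles in all lists and the same genotype difference as Wdfy1.

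The 26 genes have these neighbours, whose kinds were not counted against a background. Mrps12 starts 172 bp from Sars2, Mrpl43 starts 116 bp from Twnk, the helicase of mitochondrial DNA replication, and Mrpl36 starts 51 bp from Ndufs6, a subunit of respiratory complex I. Mrps27 starts 81 bp from Ptcd2, which acts on mitochondrial RNA, and Mrps11 starts 30 bp from Mrpl46. Mrpl49 starts 59 bp from Fau, a ribosomal protein precursor, Mrpl32 starts 75 bp from Psma2, a proteasome subunit, and Mrpl18 starts 37 bp from Tcp1, a chaperonin subunit. The other neighbours are Zfp189 (of Mrpl50), Cyb5rl (Mrpl37), Ppp1r10 (Mrps18b), Pnpla7 (Mrpl41), Ncapd2 (Mrpl51), Klc4 (Mrpl2), Apba3 (Mrpl54), Ska3 (Mrpl57), Helq (Mrps18c), Gga3 (Mrps7), Tmem63b (Mrpl14), Mitd1 (Mrpl30), Eme1 (Mrpl27), Hira (Mrpl40), Lrrc46 (Mrpl10), Eme2 (Mrps34) and Zfp661 (Mrps5). The shared Mrps11 and Mrpl46 peak had fold enrichments of 11.5 and 12.1 in WT, 12.2 in K43M replicate 1 and 7.35 in K43M replicate 2, so 3 lists were close to each other and K43M replicate 2 was lower. The median mean percentile was 82.6 for the 26 genes with a divergent neighbour and 83.1 for the other 52, beside 83.5 and 78.6 over all genes open in all lists.

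Letters of known binding motifs were searched on both strands from 250 bases before to 50 bases after the main start. The ETS letters were present in 29 of the 78 genes, 37.2%, against 19.97% of all genes open in all lists and 11.2% of all protein-coding genes. The YY1 letters were present in 12, 15.4% against 5.77% and 3.14%. The NRF-1 letters were present in 15, 19.2% against 14.8% and 8.58%, and in 19.5% of respiratory chain genes. The SP1 letters were present in 32, 41.0% against 48.6% and 33.5%, and the NFY letters in 10, 12.8% against 15.7% and 13.3%. None of the 5 was found in 15 genes, 19.2% against 28.3% of all genes open in all lists and 49.0% of all protein-coding genes. Against genes that were likewise open in all lists, the share was thus higher for ETS, YY1 and NRF-1 and lower for SP1 and NFY, as a description without a test. The ETS letters were commoner in the mitochondrion-specific genes, 51.6%, than in those with a bacterial homolog, 28.3%, and the NRF-1 letters the reverse, 12.9% and 23.9%.

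**Figure D4:**
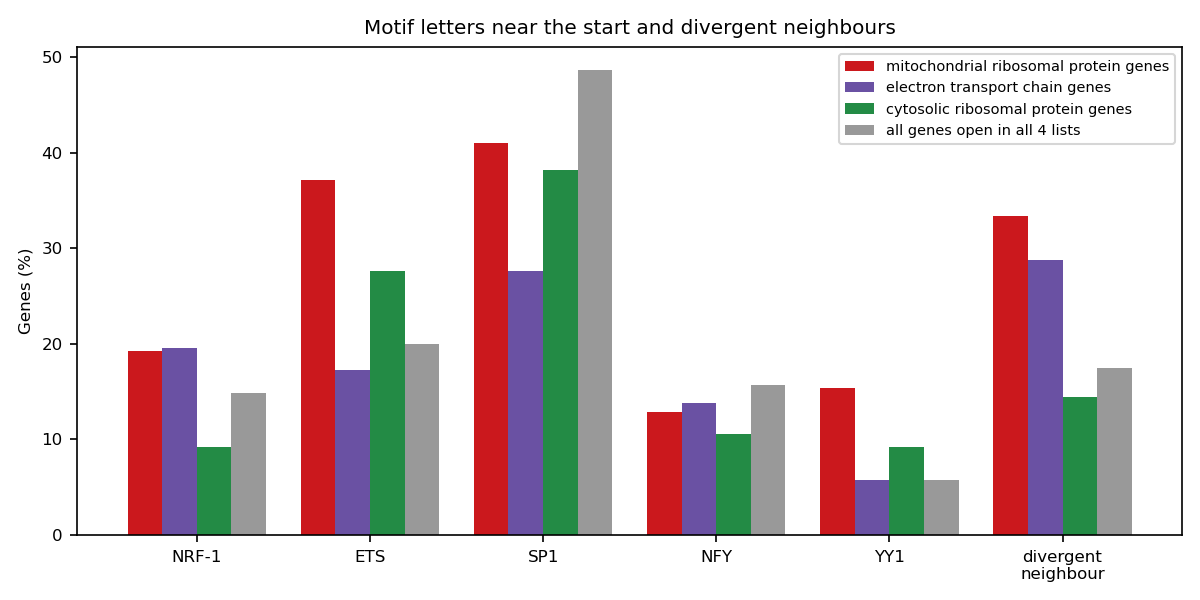
Percent of genes with each motif's letters between 250 bases before and 50 bases after the main start, and with a divergent neighbour within 1000 bp, for the 78 genes (red), 87 respiratory chain genes (purple), 76 cytosolic ribosomal protein genes (green) and all 10446 genes with a promoter peak in all lists (grey). The red bars are above the grey ones for NRF-1, ETS, YY1 and divergent neighbours, and below them for SP1 and NFY.

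The motifs differed in where they lay, counted from the GENCODE main start. The 33 ETS matches began at a median of 12 bases before the start, and 29 of them within 60 bases of it, as in the sequences of Mrps27 and Mrps18b shown above. The 21 NRF-1 matches began at a median of 30 bases before the start, as in Mrpl44, Mrpl17 and Mrpl45 at -35, -37 and -38. The 13 NFY matches all began before the start, at a median of -57. The YY1 matches lay elsewhere, since 9 of 12 began 14 to 33 bases after the start. All 9 were on the strand of the gene, so that the letters read AANATGGCG along the transcript, and in 7 of them (Mrps24, Mrpl27, Mrpl58, Mrps27, Mrps30, Mrps18a and Mrps10) the ATG is an annotated start codon of the gene. The same held for 189 of 433 protein-coding genes with these letters on the gene's own strand, 43.6%. In that count the letters began at a median of 23 bases after the start, against 21 among the 78 genes. Their position is thus not particular to the 78 genes. For the other motifs no positions over all genes are given here. In these 7 genes the letters thus run into the first codons of the protein.

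The peak rank varied with some of these features. Genes with NFY letters had a median mean percentile of 91.4 against 80.7 without, beside 87.3 against 77.9 over all genes open in all lists. Genes with SP1 letters had 85.9 against 75.5, beside 81.1 against 78.1 over all open genes. For ETS it was 83.7 against 82.6, beside 84.5 against 78.02, and for NRF-1 83.7 against 82.6, beside 83.8 against 78.6. For the 3 NRF-1 genes printed above, fold enrichments in WT and K43M were 13.96, 11.9, 15.3 and 12.04 for Mrpl44, 12.4, 12.2, 13.7 and 13.03 for Mrpl17 and 11.5, 11.8, 12.9 and 11.6 for Mrpl45, in the list order used throughout. Their differences between genotypes were 0.06 ± 0.12, 0.11 ± 0.10 and 0.07 ± 0.11 on the log2 scale, with limma adjusted p-values of 0.91, 0.77 and 0.88. The values of Mrpl44 are also those of Wdfy1, so they cannot be assigned to Mrpl44 alone.

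In none of the other lists of mitochondrial translation genes was a gene past the adjusted p of 0.05 in the limma fit. At an unadjusted p under 0.05, which 4.95% of all genes passed as higher in K43M and 4.57% as lower, the assembly genes showed 0 higher and 5 lower of 24 tested (20.8% lower), the translation factors 2 higher and 1 lower of 10 (20% and 10%), and the tRNA synthetases and amidotransferase subunits 1 higher and 1 lower of 20 (5% each). The lowest values among the assembly genes were those of Rcc1l, a factor of mitoribosome assembly, at -0.51 ± 0.17, Mrm3, a methyltransferase of the large ribosomal RNA, at -0.47 ± 0.15, and Eral1, a chaperone of the small ribosomal RNA, at -0.45 ± 0.17. Their limma adjusted p-values were 0.38, 0.33 and 0.42.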

How the data were processed

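ATAC-seq libraries of 4 BCR-ABL(p185) lines were processed by the authors with Trimmomatic 0.36, BWA 0.7.15, SAMtools 1.3.1 and MACS2 2.1.0 on mm10, per the submitters' processing notes, with 1 peak list per line and not pooled. MACS2 was run with read ends shifted and extended, as suits transposase cuts. The deposited lists give a ratio (fold enrichment at the summit over local background) and −log10 p-values and q-values. 3 lists carry a sample label, and the unnumbered WT list was taken as WT from its own name and the series description. Peaks below the authors' threshold are not listed, so no peak means no call.

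Promoter windows (2000 bp upstream to 200 bp downstream, any overlap of at least 1 bp) used GENCODE release 21, and the highest peak stood for a gene. Percentiles were ranks by fold enrichment within a list. The genotype test was limma 3.58.1 (R 4.3.3) with a trend on log2 fold enrichment, without pseudocount, centred on the median over genes with a peak in all lists, with Benjamini-Hochberg adjustment over all genes tested. It was run on simulated data with the same SD for every gene, which does not test the trend. Summit pileups were solved from fold enrichment and p-value within 0.01 in −log10 p. P-values rest on the spread between lists, which limma draws toward a trend over all genes. With 1 list per line, differences between lines, libraries and read counting are not separated. The genes and lists were chosen with earlier results of these data known. Genes are named by rank (5 highest, 5 lowest mean percentile), by difference (5 in each direction without overlap), by chromosome (12, 13, 18) and, for sequences, by NRF-1 letters. The ETS, YY1 and divergent examples, the genes with displaced or alternative summits, and the genes named from the other lists were picked after their values were seen. Of the 6 genes by the NRF-1 rule, the 3 with a match wholly before the start are printed. Of the 78 genes 69 are in the RefSeq promoter table, but for only 18 did the window around the main start equal a RefSeq window. Sequences were therefore read from the genome, and motif positions hold for the GENCODE main start only. Alternatives changed the window, the starts, the overlap rule, the peak filter, the peak chosen, the rank, the centring, the trend and the lists. Of the B-lineage markers fixed for the check of the cell type, 1 is not reported here.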

Additional observations from a re-analysis of the deposited data

How the results depend on the processing

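All 78 genes kept a peak in every list with coding starts alone and with the same number of peaks per list. Leaving a list out could not lower this count or confine a gene's peaks to a genotype, so those settings do not test either. The count was 77 with a 500 bp window (not Mrps2) or a −log10 q of at least 5 (not Mrpl35). It was 72 with the summit inside the window. There 1 gene, Mrpl54, had a peak in both WT lists and neither K43M list. Its highest peaks had summits 275 and 272 bp downstream in K43M, past the 200 bp edge, and 273 bp in WT unnumbered, which had 2 promoter peaks. Their fold enrichments were 9.92 and 9.54 in WT and 11.28 and 11.33 in K43M. The share of all genes with this pattern under the summit rule was not counted. No alternative called any of the 78 genes. The count over all genes was 17, and it was 11 with the summit inside the window, 6 with the q filter, 11 with the same number of peaks, 1 without centring and 10 to 76 when a list was left out (51 without the unnumbered WT list, 76 without WT replicate 2, 64 without K43M replicate 1, 10 without K43M replicate 2). The split into higher and lower in K43M was 17 and 47 without K43M replicate 1, and 3 and 7 without K43M replicate 2, against 13 and 4 in all lists, and 0 and 1 without centring. The cause of these moves was not tested. The median difference of the genes, and of their percentile, changed sign in some alternatives but moved by less than the SD between lists, as did the width. With 2 lists per genotype, leaving a list out cannot move the percentile or width difference beyond that SD, so the limit is no check there. The percentile difference of 0.37 was -2.41 without K43M replicate 1 and 3.15 without K43M replicate 2. Of 87 alternative values 78 stayed within their limits, a count that includes values fixed in advance in this way. No paired analysis was possible because the genotypes share only the number 2, and 1 WT list has none. With 2 lines per genotype and pileups near 50 read ends, the 95% interval of a gene's difference had a median half-width of 0.28 on the log2 scale.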
